A study of Mus musculus with 1 sample.

Results

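Integrins and laminins were read in the cells of the fetal mouse testis. All genes of the control library whose symbol is *Itga* or *Itgb* with a number or letter, or *Lama*, *Lamb* or *Lamc* with a number, were taken, without the *Itgb1bp* and *Itgbl* genes. This gave 38 of the 22631 features of the matrix, of which 18 encode integrin α subunits, 9 integrin β subunits, 5 laminin α chains, 3 laminin β chains and 3 laminin γ chains. The library was made by droplet-based single-cell RNA sequencing of the 3′ ends of messenger RNA from testes at embryonic day 14.5, pooled from 12 controls. The label gives their genotype as WT, whereas the methods describe controls as *Nr5a1* L2/L2 fetuses, which carry *loxP*-flanked alleles of *Nr5a1* and lack the Cre transgene, on a mixed background. The text of the study names embryonic day 13.5 as well. There was 1 library and therefore no replicate, so nothing could be tested between samples, and each exact 95% interval given here reflects the counting of molecules alone.

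Integrins are receptors made of 1 α and 1 β subunit that span the plasma membrane and hold cells to the extracellular matrix or to other cells. Laminins are trimers of an α, a β and a γ chain that polymerise into the basement membrane, the sheet on which epithelia rest and which surrounds vessels, muscle cells and the testis cords. The pairing decides what is bound: α6β1 and α3β1 are laminin receptors, α1β1 and α2β1 collagen receptors, α4β1 and α9β1 bind VCAM1, fibronectin, tenascin C or osteopontin, and α5, α8 and αv receptors read the RGD motif of fibronectin and related proteins. In the fetal testis, the Sertoli cells are epithelial cells that line the cords around the germ cells, and peritubular myoid cells lie on the outer side of the cord basement membrane.

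The filters kept 3816 cells with 54483539 UMIs (molecules counted by their index), between 2262 and 53657 per cell with a median of 12042. The 38 genes were left out of the matrix that was clustered, so that no cell class was defined by their counts. Of the 3816 cells, 3671 fell into 11 classes named from marker genes, each name meaning only that at least 3 markers of that type were found in 25% of its cells and stood above the other clusters. The classes were Sertoli-like (862 cells), interstitial-like (1342), peritubular myoid-like (520), Leydig-like (307), germ-like (251), coelomic epithelium-like (156), perivascular-like (102), endothelial-like (42), immune-like (37), erythroid-like (35) and rete testis-like (17). A cluster of 82 cells and a shallow cluster of 63 cells stayed unnamed. Levels are UMIs of a gene per 1000000 UMIs of the class (CPM). One molecule gives 1 UMI whatever its length, so these levels do not scale with transcript length, although the capture of a 3′ end differs from gene to gene.

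A gene was called higher or lower in a class where its level there, with 5 CPM added, differed at least 2-fold from that in all other kept cells, if some class of at least 30 cells held 10 CPM. There were 27 genes that reached 10 CPM in such a class and 24 that reached 20 CPM, whereas 11 did not reach 10 CPM in any and could not be called. Beside each count of members called by this rule in 1 class, the share of the 11741 genes that reached 10 CPM and were called alike is given. The total that matches this share is the 27 and not the 38. Among the 10 classes of at least 30 cells, 23 of the 38 were higher in at least 1 class and 18 of these in exactly 1. The matching shares over all genes were not counted, so these 2 counts do not set the members apart from other genes. The 4 that reached 10 CPM and were higher in none were *Itgav*, *Itgb5*, *Lama1* and *Lamb2*. A call compares a class with the mean of all other cells, so a gene with a high level in 1 large class can stand high in another without a call there. *Itga2*, *Itga2b*, *Itga3*, *Itgal*, *Itgam*, *Itgb2*, *Itgb3*, *Itgb7* and *Lama3* reached 10 CPM in only 1 class of at least 30 cells. They could therefore be called only through their level there.

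**Figure D1:**
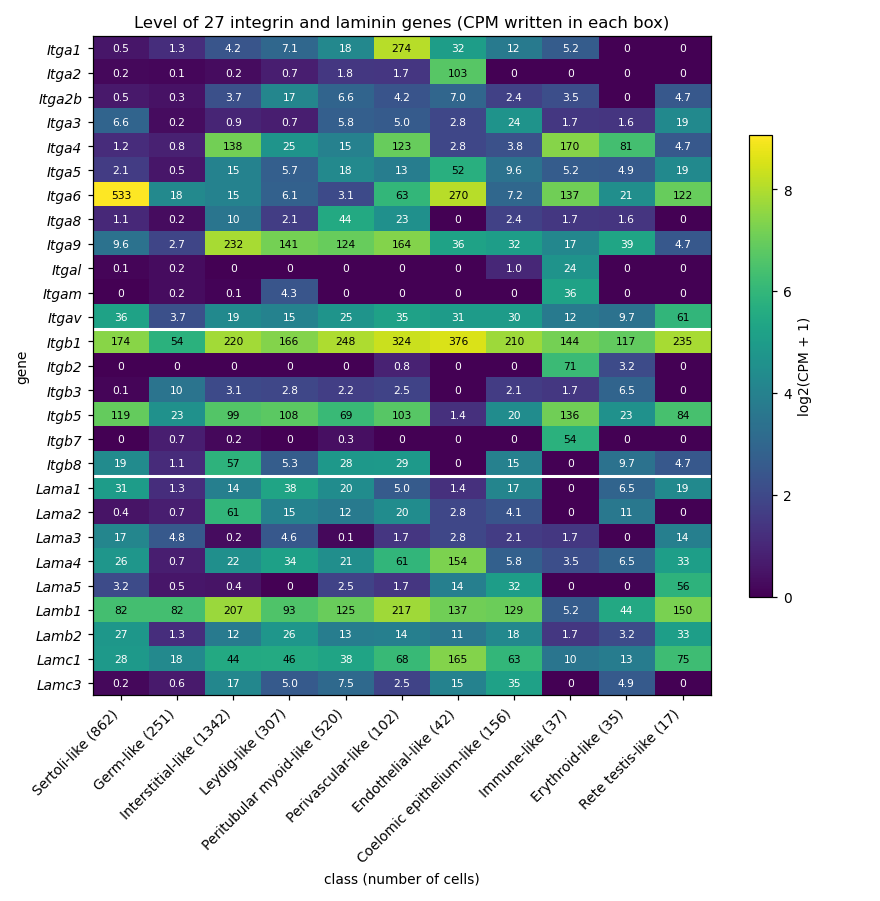
Levels of the 27 genes that reached 10 CPM (rows: integrin α, integrin β and laminin genes, divided by white lines) in the 11 named classes (columns, with the number of cells). The number in each box is the CPM and the colour is log2(CPM + 1). *Itgb1* and *Lamb1* are bright in most columns, whereas most *Itga* and *Lama* rows are bright in a few, such as *Itga6* at 533 CPM in Sertoli-like cells.

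*Itgb1*, the β subunit that pairs with the largest group of α subunits, was present in every class. Its level was 376 CPM in endothelial-like cells (95% interval 332 to 423), 324 in perivascular-like cells (293 to 358), 248 in peritubular myoid-like cells (236 to 260), 235 in rete testis-like cells (174 to 310), 220 in interstitial-like cells (212 to 228), 210 in coelomic epithelium-like cells (194 to 227), 174 in Sertoli-like, 166 in Leydig-like, 144 in immune-like, 117 in erythroid-like and 53.7 in germ-like cells. The highest pair of classes did not differ beyond counting error (ratio 1.16, interval 0.988 to 1.36). Among the named classes, *Itgb1* was called higher in endothelial-like cells alone and lower in germ-like cells alone. In 10 of the 11 classes it held more than 50% of all integrin β UMIs, from 55.6% in Sertoli-like to 98.9% in endothelial-like cells, and in immune-like cells it held 35.5% (29.4 to 42.0).

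*Itgb5*, a partner of αv, was the second β subunit in 10 of the 11 classes. It reached 136 CPM in immune-like, 119 in Sertoli-like, 108 in Leydig-like, 103 in perivascular-like and 98.8 in interstitial-like cells. In endothelial-like cells it was at 1.40 CPM, from 1 UMI among 42 cells. The upper bound there, 7.78 CPM, lay below the lower bound of each of the other named classes. *Itgb8*, which pairs with αv and binds latent TGFβ, stood at 56.8 CPM in interstitial-like cells (52.8 to 61.0), 29.2 in perivascular-like, 27.6 in peritubular myoid-like and 19.4 in Sertoli-like cells, with 0 UMIs in endothelial-like and immune-like cells.

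*Itgav* itself, the αv subunit shared by the RGD receptors, varied less from class to class. It lay between 12.2 and 36.4 CPM in 8 of the 10 classes of at least 30 cells, and at 9.73 and 3.66 CPM in erythroid-like and germ-like cells. Sertoli-like (36.4 CPM) and perivascular-like cells (35.0 CPM) did not differ beyond counting error (ratio 1.04, interval 0.758 to 1.46). *Itgb3*, its partner in platelets, vessels and osteoclasts, was low everywhere and highest in germ-like cells at 10.1 CPM (8.08 to 12.4). There it was the only 1 of the 38 genes called higher, beside 11.4% of the 11741 genes tested. It reached the level needed for a call in this class alone, and the interval spans that level. It did not differ there from erythroid-like cells, at 6.49 CPM, beyond counting error (ratio 1.55, interval 0.586 to 5.83).

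**Figure D2:**
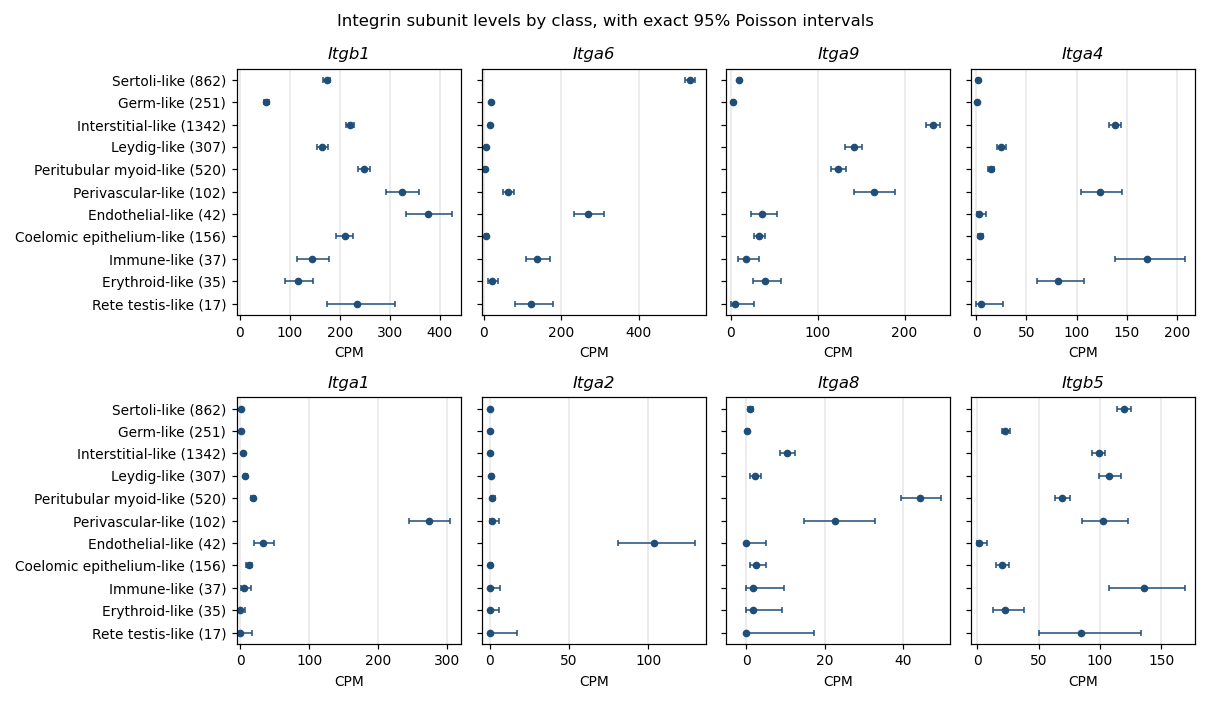
Levels in CPM (horizontal axes, each panel with its own scale) of 8 integrin subunits in the 11 named classes, as points with exact 95% Poisson intervals. *Itgb1* lies above 50 CPM in every class, whereas *Itga6*, *Itga9*, *Itga4*, *Itga1*, *Itga2* and *Itga8* each peak in 1 class or a few, and *Itgb5* nearly vanishes in endothelial-like cells.

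In Sertoli-like cells 1 α subunit dominated. *Itga6*, the α subunit of the laminin receptor α6β1, reached 533 CPM (520 to 545), the highest level of any of the 38 genes in any named class, and made up 89.3% of the integrin α UMIs of these cells (88.6 to 90.0). Of all its UMIs in kept cells, 89.0% came from Sertoli-like cells. The next levels in named classes were 270 CPM in endothelial-like (233 to 310), 137 in immune-like, 122 in rete testis-like and 62.5 in perivascular-like cells. The Sertoli-like level was 1.98 times the endothelial-like one (1.71 to 2.29). Peritubular myoid-like cells, named after the neighbours of Sertoli cells across the cord basement membrane, held 3.097 CPM. The shallow unnamed cluster of 63 cells held *Itga6* at 138 CPM, 26.0% of the Sertoli-like level. The Sertoli genes *Amh*, *Ptgds*, *Cst9* and *Aard* stood there at 45.5% to 120% of theirs.

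Thinned to 5000 UMIs per cell, 89.1% of Sertoli-like cells had an *Itga6* UMI (86.8 to 91.1), against 0.591% of peritubular myoid-like cells (0.122 to 1.72), and as read the shares were 97.9% and 3.85%. The median Sertoli-like cell held 2 *Itga6* UMIs at that depth, against 0 in interstitial-like and germ-like cells and 1 in endothelial-like cells. As a view of free RNA, 4 of the 9 Sertoli markers were set beside *Itga6*. Median depths were 14326 UMIs in Sertoli-like, 11345 in peritubular myoid-like and 36002 in germ-like cells. In peritubular myoid-like cells, *Amh*, *Ptgds*, *Cst9* and *Aard* stood at 0.418% to 0.695% of their Sertoli-like level and *Itga6* at 0.581%. In germ-like cells the same 4 genes stood at 0.423% to 0.595% and *Itga6* at 3.42%. The part of free RNA in the *Itga6* UMIs of either class was not tested.

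Sertoli-like cells assigned to the G2M phase of the cell cycle held 660 CPM of *Itga6* (634 to 687), against 489 in G1 (471 to 506) and 473 in S (449 to 498). *Itgb1* stood at 182, 165 and 182 CPM in the same 3 groups. Thus *Itga6* differed between phase groups beyond counting error, whereas the *Itgb1* intervals of all 3 overlapped. Phase calls rest on other genes of the same cells, and whether depth or free RNA takes part was not tested.

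The members higher in Sertoli-like cells were *Itga6* and *Lama3* (2 of the 38), where the same rule called 8.73% of the 11741 genes tested. There were 7 lower (10.8% of genes): *Itga1*, *Itga4*, *Itga5*, *Itga8*, *Itga9*, *Lama2* and *Lamc3*. The median log2 difference of the tested members was -0.30, beside -0.07 over all genes tested.

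Interstitial-like cells carried other α subunits. *Itga9* reached 232 CPM (224 to 241) and held 51.9% of the integrin α UMIs, and *Itga4* reached 138 CPM (132 to 145) and held 30.8%. *Itga9* was also at 164 CPM in perivascular-like, 141 in Leydig-like and 124 in peritubular myoid-like cells, where it was the leading or second α subunit, against 9.64 in Sertoli-like cells and 2.75 in the germ-like ones, the cells of the cords. The interstitial-like level was 1.42 times the perivascular-like one (1.22 to 1.64).

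*Itga4* varied more among these classes. Beside the interstitial-like level it stood at 123 CPM in perivascular-like cells, 24.9 in Leydig-like and 14.8 in peritubular myoid-like cells. Its highest level, 170 CPM (138 to 208), was in immune-like cells and did not differ from the interstitial-like one beyond counting error (ratio 1.23, interval 0.997 to 1.51). In Sertoli-like cells, *Itga4* stood at 0.895% of the interstitial-like level and *Lama2* at 0.629%. The collagen genes *Col1a1*, *Col1a2* and *Col3a1* stood at 0.751% to 1.31%, *Itga9* at 4.15% and *Itgb8* at 34.2%. These collagen genes are not of interstitial-like cells alone, as *Col1a1* reached 256% of that level in peritubular myoid-like cells. The part of free RNA in these values was not tested. Median depths were 14326 UMIs in Sertoli-like and 9248 in interstitial-like cells.

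Interstitial-like cells had 6 of the 38 genes higher (4.54% of genes): *Itga4*, *Itga9*, *Itgb8*, *Lama2*, *Lamb1* and *Lamc3*. *Itga1*, *Itga6* and *Lama3* were lower (8.38% of genes). The interstitial-like class held 3 clusters of 858, 291 and 193 cells, in which *Itga9* stood at 234, 232 and 228 CPM. *Itga4* varied more, at 162, 81.7 and 115 CPM.

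*Itgb1* was found in every class. *Itga4*, *Lamb1* and *Itga1* were high in interstitial-like or perivascular-like cells, although *Lamb1* also led the laminin β chains in every named class. The sequences before the transcript start are shown for these 4 genes. They are the 250 bases upstream of RefSeq starts on GRCm38.p6, 5′ to 3′ in the direction of the gene, at chr8:128685404-128685653 (plus strand) for *Itgb1*, chr2:79255176-79255425 (plus) for *Itga4*, chr12:31265043-31265292 (plus) for *Lamb1* and chr13:115101965-115102214 (minus) for *Itga1*. The *Itga1* window holds none of the motifs searched. Capitals mark GC boxes (GGGCGG) and CCAAT boxes (CCAAT) on either strand.
Itgb1: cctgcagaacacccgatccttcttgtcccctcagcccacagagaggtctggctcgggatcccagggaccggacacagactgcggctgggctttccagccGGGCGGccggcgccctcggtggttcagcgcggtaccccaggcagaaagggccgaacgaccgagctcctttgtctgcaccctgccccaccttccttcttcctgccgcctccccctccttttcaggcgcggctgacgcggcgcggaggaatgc
Itga4: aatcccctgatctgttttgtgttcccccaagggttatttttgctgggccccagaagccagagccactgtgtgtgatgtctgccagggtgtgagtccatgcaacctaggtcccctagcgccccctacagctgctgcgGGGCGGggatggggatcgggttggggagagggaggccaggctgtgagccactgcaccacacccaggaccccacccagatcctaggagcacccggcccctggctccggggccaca
Lamb1: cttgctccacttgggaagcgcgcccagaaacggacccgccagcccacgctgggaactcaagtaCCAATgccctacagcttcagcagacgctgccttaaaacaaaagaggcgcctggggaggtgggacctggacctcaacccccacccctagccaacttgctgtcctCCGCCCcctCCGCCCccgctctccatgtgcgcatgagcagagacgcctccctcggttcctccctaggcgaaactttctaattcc
Itga1: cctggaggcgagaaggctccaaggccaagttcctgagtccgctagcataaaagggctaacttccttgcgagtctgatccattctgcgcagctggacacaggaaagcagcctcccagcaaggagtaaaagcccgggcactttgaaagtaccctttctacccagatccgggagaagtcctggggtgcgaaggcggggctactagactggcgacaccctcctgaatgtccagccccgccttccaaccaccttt

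Of the 38 genes, 24 had an entry in the set of RefSeq promoters used here, with 27 such windows in all, as some genes have more than 1 start. The other 14, among them *Itga6*, *Lama1*, *Lama3*, *Lama4* and *Lamc1*, had no window in that set and were not searched. A GC box was found in 9 of the 27, beside 32.7% of 32851 windows of all genes, and a CCAAT box in 4, beside 33.9%. The letters TATAAA of the TATA box were in none of the 27, beside 12.4% of all windows. CAAGGTCA, a sequence bound by NR5A1, was in none, beside 1.33%, and AACAAT, the core read by SOX proteins, was in 3, beside 9.42%. The windows with AACAAT belong to *Itga8*, *Itgax* and *Itgb6*. A match describes letters in this window only, and no binding was measured.

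Perivascular-like cells were marked by *Itga1*, the α subunit of a collagen and laminin receptor of smooth muscle and pericytes, at 274 CPM (245 to 305). It was 8.52 times the level of endothelial-like cells (32.1 CPM; ratio interval 5.58 to 13.6), and it stood at 17.7 CPM in peritubular myoid-like and 0.463 in Sertoli-like cells. It led the α subunits of this class with 37.6% of their UMIs, followed by *Itga9* at 22.6% and *Itga4* at 17.0%. *Itga1* overlaps *Pelo* and *Gm49395* on the same strand. *Pelo* held 1.16 CPM in Sertoli-like and 1.25 CPM in Leydig-like cells, and *Gm49395* held none in either. Neither neighbour was read in perivascular-like cells.

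The class was not uniform. At a clustering resolution of 0.4, 52 of its 102 cells stayed perivascular-like and 50 joined the interstitial-like class. *Itga1* stood at 493 CPM in the 52 cells (440 to 551) and had UMIs in 46 of them, whereas the 50 others held 21.5 CPM (11.1 to 37.5), in 6 cells. *Rgs5*, a pericyte marker, followed the same division, with 871 CPM in the 52 cells and 17.9 in the 50. *Itgb1* was at 400 and 238 CPM, *Itga4* at 167 and 73.4, and *Itga9* ran the other way, at 127 and 208 CPM. *Itga7*, a laminin receptor subunit of muscle, held 9 of its 14 UMIs in the 52 cells. The *Itga1* level of the class therefore ranged from 184 CPM at resolution 1.2 to 493 at resolution 0.4.

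*Itga1*, *Itga4* and *Lama4* were higher in perivascular-like cells (3 of the 38; 3.31% of genes) and *Itga6* and *Lama1* were lower (7.65% of genes). Summed over the 10 endothelial markers, these cells held 92.6 CPM, against 5501 in endothelial-like cells, and 3 of the 10 were at 0. Their *Itga6* level of 62.5 CPM was 23.2% of the endothelial-like one.

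Endothelial-like cells had 7 of the 38 genes higher (7.69% of genes): *Itga1*, *Itga2*, *Itga5*, *Itgb1*, *Lama4*, *Lama5* and *Lamc1*. *Itga2*, the α subunit of the collagen receptor α2β1, was nearly restricted to them at 103 CPM (81.1 to 130), with 75.5% of its UMIs in these 42 cells. The next class, peritubular myoid-like cells, held 1.77 CPM, a ratio of 58.4 (31.5 to 118). *Itga5*, the fibronectin receptor subunit, stood at 51.7 CPM (36.4 to 71.2), 2.80 times the peritubular myoid-like level (1.89 to 4.07). *Itga6* led the α subunits with 50.3% of the UMIs, ahead of *Itga2* with 19.3%, but was not called higher, since the other cells include the Sertoli-like ones. There were 7 lower (16.2% of genes), which included *Itga4*, *Itga9*, *Itgb5* and *Itgb8*.

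In peritubular myoid-like cells *Itga8* was higher (1 of the 38, or 3.70% of the 27; 3.03% of genes), at 44.2 CPM (39.4 to 49.5). *Itga8* pairs with β1 and binds nephronectin and fibronectin. The level was 1.97 times that of perivascular-like cells (22.5 CPM; ratio interval 1.32 to 3.03), and interstitial-like cells held 10.4 CPM. The highest level was in the unnamed cluster of 82 cells, in which interstitial markers were the highest list, at 120 CPM (96.7 to 147), where *Itga8* held 31.9% of the integrin α UMIs. *Itga4*, *Itga6* and *Lama3* were lower in peritubular myoid-like cells (8.03% of genes). The summed myoid markers of this class stood at 3137 CPM, against 536 in interstitial-like cells, and 4 of the 7 were in 25% of its cells. Its summed interstitial markers stood at 2670 CPM, beside 2473 in interstitial-like cells. The part of interstitial cells or RNA in this class was not tested.

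Coelomic epithelium-like cells, named after the surface layer of the gonad, held no dominant α subunit: *Itga9* gave 25.2% of the α UMIs, *Itgav* 23.6% and *Itga3* 18.8%. Their summed coelomic epithelium markers stood at 1353 CPM, against 269 in interstitial-like cells. Their summed interstitial markers stood at 2208 CPM, beside 2473 in interstitial-like cells, and *Col1a1* at 106% of its interstitial-like level. The part of interstitial RNA in their *Itga9* was not tested. Their higher genes were *Itga3*, *Lama5* and *Lamc3* (3 of the 38; 3.78% of genes), and 7 were lower (7.1% of genes). *Itga3*, a receptor subunit for laminins with the α3 or α5 chain, stood at 24.1 CPM (18.8 to 30.4), 3.67 times the Sertoli-like level (2.64 to 5.10). *Lama5* stood at 31.7 CPM (25.5 to 38.8). The 17 rete testis-like cells held *Itga3* at 18.8 CPM and *Lama5* at 56.3 (29.1 to 98.4). In that class 3 UMIs make 14.1 CPM, so the *Itga3* value rests on very few molecules.

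Immune-like cells had the leukocyte integrins. *Itgb2*, the β subunit of the leukocyte integrins, was at 71.2 CPM (51.1 to 96.6) from 41 UMIs, and was at 0 in 8 of the other classes. *Itgb7* was at 53.9 CPM, *Itgam* at 36.5 and *Itgal* at 24.3, each at 4.27 CPM or less in every other class. With *Itga4*, these made 5 of the 38 genes higher (11.1% of genes), and 10 were lower (23.3% of genes). Of the subunits shared with other tissues, *Itga6* stood at 137 CPM, *Itgb1* at 144 and *Itgb5* at 136.

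The 37 immune-like cells were mixed. The 16 with at least 3 UMIs of *C1qa*, a macrophage gene, and more of it than of *S100a8* held *Itgb5* at 260 CPM (198 to 335) and *Itga6* at 229 (171 to 301), and no UMI of *Itgal* or *Itgb7*. The 6 with at least 3 UMIs of *S100a8*, a neutrophil gene, and more of it than of *C1qa* held *Itgb5* at 33.9 CPM (9.24 to 86.9), *Itga6* at 42.4 (13.8 to 98.9) and *Itgal* at 33.9, with *Itgal* UMIs in 4 of the 6 cells. The 6 held 1 UMI of *Itgb7*, at 8.48 CPM, beside 53.9 in the class as a whole. The cells of the class in neither group were not read apart, and they held most of its *Itgb7* and *Itgal* UMIs. Both groups were defined after the classes had been seen. With an outlier limit of 5 median absolute deviations the class held 116 cells, and *Itga4*, *Itgb2*, *Itgam*, *Itgal* and *Itgb7* stood at 0.586 to 0.622 times the levels given here.

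Leydig-like cells, the steroid-producing cells, were led by *Itga9* with 62.4% of the α UMIs. *Itga2b*, the α subunit of the platelet fibrinogen receptor, was higher (1 of the 38; 5.19% of genes) and *Itga6*, *Itga8* and *Itgb8* were lower (11.9% of genes). *Itga2b* stood at 16.7 CPM (13.5 to 20.5), beside 6.98 in endothelial-like cells (ratio 2.40, interval 0.992 to 7.55). A single barcode with 35641 UMIs held 19 of its 94 UMIs. This barcode also held 10 UMIs of *Itgb3*, 216 of *Pf4*, 15 of *Ppbp* and 20 of *Gp9*, genes of megakaryocytes and platelets, and 393 of *Cyp17a1*, a gene of steroid synthesis. Without it, *Itga2b* stood at 13.4 CPM (10.6 to 16.9) and was still higher, with at most 4 UMIs in any cell, and *Itgb3* fell from 2.85 to 1.075 CPM.

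The Leydig-like class joined 2 clusters that differed in these genes. Cluster 8, whose 125 cells were led by steroidogenic genes, and cluster 6 of 182 cells held *Itgb8* at 0.642 and 11.2 CPM, *Lamc3* at 0.642 and 10.4, and *Lamb1* at 62.5 and 130 CPM. *Lamb1* was 2.08 times higher in cluster 6 (1.74 to 2.50). *Itga2b* at 22.1 against 10.0 CPM, *Lamb2* at 32.1 against 18.0, and *Lama4* at 41.7 against 24.8 ran the other way, with ratios of 2.21 (1.38 to 3.65), 1.78 (1.24 to 2.59) and 1.68 (1.23 to 2.31) of cluster 8 over cluster 6. *Lama1* and *Lamc1* did not differ beyond counting error (ratios 0.840, interval 0.636 to 1.11, and 0.867, 0.673 to 1.12).

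**Figure D3:**
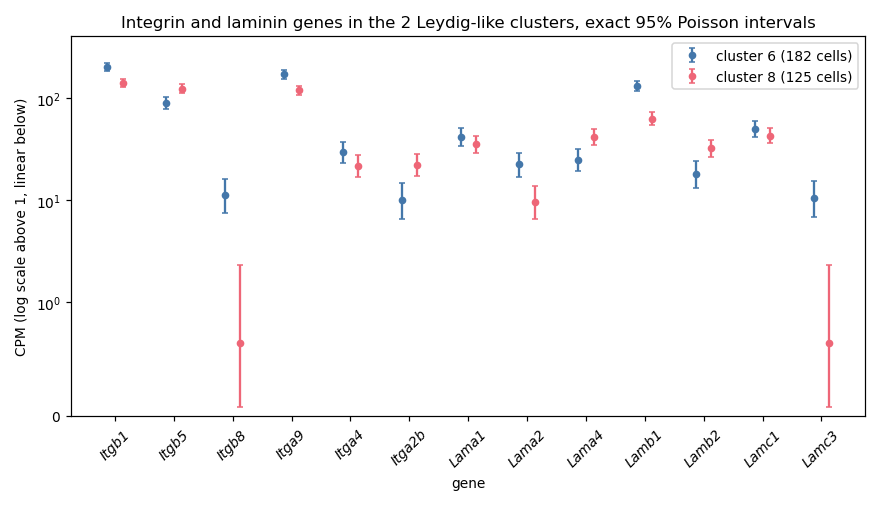
Levels in CPM (vertical axis, logarithmic above 1 and linear below) of 13 integrin and laminin genes in the 2 clusters of Leydig-like cells, with exact 95% Poisson intervals. *Itgb8* and *Lamc3* are near 0 in cluster 8 (2 UMIs each) and above 10 CPM in cluster 6, whereas *Itga2b*, *Lama4* and *Lamb2* are higher in cluster 8.

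As a share of their UMIs, germ-like cells held little of most of these genes. Their median depth was 36002 UMIs, against 14326 in Sertoli-like and 9248 in interstitial-like cells. A low level in CPM is therefore not always a low count per cell. Their integrin α UMIs summed to 33.5 CPM (29.8 to 37.6), against 597 in Sertoli-like cells, and 54.3% of them were *Itga6*. The lower members were 16 of the 38, or 59.3% of the 27 (25.9% of genes), among them *Itgb1*, *Itga6*, *Itga9*, *Lama1*, *Lama4* and *Lamc1*. The median log2 difference of the tested members was -1.54, beside -0.28 over all genes tested. *Itgae*, the partner of β7 and a receptor of E-cadherin, gave 36 of its 47 UMIs here, a level of 4.12 CPM. *Itgb7*, the gene of β7, stood at 0.687 CPM in germ-like cells. *Itgae* overlaps *Haspin* on the other strand and lies near *Ncbp3* on its own. Neither neighbour was read in germ-like cells.

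Erythroid-like cells had no gene called higher (0 of 38; 2.84% of genes) and 11 lower (29.0% of genes). *Itga4* stood at 81.1 CPM (60.2 to 107) and *Itga9* at 38.9, which are 58.8% and 16.8% of their interstitial-like levels. In the same 35 cells *Col1a1*, *Col1a2* and *Col3a1*, collagen genes of interstitial cells, stood at 28.2%, 26.1% and 30.4% of their interstitial-like levels. The part of such RNA in the integrin values of this class was not tested.

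On the matrix side, the laminin α chain changed from class to class. Sertoli-like cells held *Lama1*, the α chain of early epithelial basement membranes, at 30.8 CPM (27.8 to 34.0), *Lama4* at 26.2 and *Lama3* at 16.9, which are 39.7%, 33.9% and 21.8% of their laminin α UMIs. *Lama3* was 3.51 times the germ-like level of 4.81 CPM (2.52 to 5.01), the next among classes of at least 30 cells. *Lama1* was highest in Leydig-like cells, at 37.9 CPM (33.0 to 43.4), 1.23 times the Sertoli-like level (1.04 to 1.46).

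Interstitial-like cells held *Lama2*, the α chain of muscle and mesenchymal basement membranes, at 61.3 CPM (57.1 to 65.7), 62.8% of their α chains and 3.06 times the perivascular-like level (2.04 to 4.81). *Lama4*, the α chain of vessel walls, reached 154 CPM (126 to 185) in endothelial-like cells, 88.0% of their α chains, and 60.9 CPM in perivascular-like cells. The endothelial-like level was 2.52 times the perivascular-like one (1.86 to 3.44). In peritubular myoid-like cells *Lama4* and *Lama1* were near equal, at 38.1% and 36.0% of α chains. Coelomic epithelium-like and rete testis-like cells were led by *Lama5*, with 52.6% and 46.2%.

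**Figure D4:**
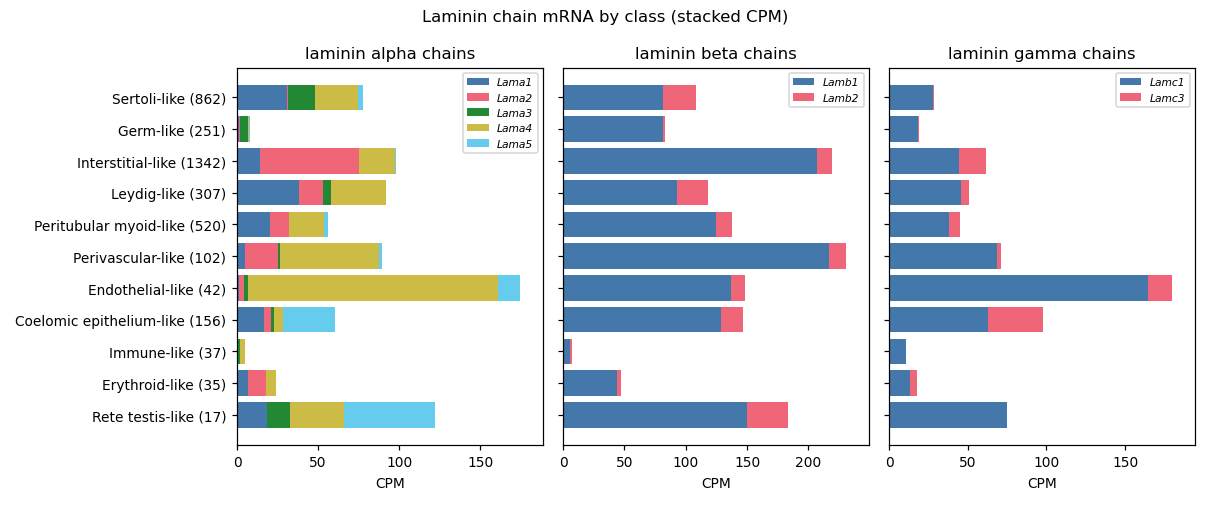
Levels of the laminin α, β and γ chain genes that reached 10 CPM (horizontal axes, CPM), stacked by gene in the 11 named classes. The α panel changes its leading colour from class to class, with *Lama2* in interstitial-like and *Lama4* in endothelial-like cells, whereas *Lamb1* fills most of each β bar and *Lamc1* most of each γ bar.

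The β and γ chains were shared. *Lamb1* led the β chains in all 11 classes, from 75% in immune-like cells, on 4 UMIs, to 98.5% in germ-like cells. Its level was 217 CPM in perivascular-like cells (191 to 245) and 207 in interstitial-like cells (200 to 215), a ratio of 1.05 (0.917 to 1.19), and 81.6 CPM in Sertoli-like cells. *Lamb2*, the β chain of mature basement membranes, took 24.7% of β chain UMIs in Sertoli-like and 21.8% in Leydig-like cells, at 26.7 and 25.8 CPM. *Lamc1* led the γ chains in all 11 classes and was highest in endothelial-like cells, at 165 CPM (136 to 197). *Lamc3* gave 34.3% of γ chains in coelomic epithelium-like and 28.2% in interstitial-like cells, and 0.542% in Sertoli-like cells.

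Germ-like cells held *Lamb1* at 81.5 CPM, level with Sertoli-like cells at 81.6, but their 5 α chains together summed to 7.90 CPM (6.15 to 10.0) and *Lamc1* stood at 18.1 CPM. In Sertoli-like cells the α chains summed to 77.5 CPM and the γ chains to 28.5. The β chain was thus the most abundant of the 3 chain kinds in both classes. In endothelial-like cells the sums were 175, 148 and 182 CPM for α, β and γ.

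Pairs were then read in the same cells, at 5000 UMIs per cell. UMIs of both *Itga6* and *Itgb1* were in 51.7% of 846 Sertoli-like cells (48.2 to 55.1), beside 51.5% for the product of the separate shares, and in 21 of 42 endothelial-like cells (interval 34.2% to 65.8%). *Itga9* and *Itgb1* met in 43.8% of 1275 interstitial-like cells (41.1 to 46.6; product 43.7%), 37.6% of perivascular-like, 27.3% of Leydig-like and 26.8% of peritubular myoid-like cells. *Itga4* and *Itgb1* met in 28.0% of interstitial-like (25.6 to 30.6) and 33.7% of perivascular-like cells (24.6 to 43.8). The product lay within the interval of the observed share in each of these.

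The pairs that bind collagen met in fewer classes. *Itga1* and *Itgb1* met in 36.6% of 101 perivascular-like cells (27.3 to 46.8) and *Itga2* and *Itgb1* in 33.3% of endothelial-like cells (19.6 to 49.6), and neither pair reached 8% of the cells of another class. The share for *Itga1* moved with the extent of the perivascular-like class, from 23.8% at resolution 1.2 to 66.7% at resolution 0.4. *Itga5* and *Itgb1* met in 26.2% of endothelial-like cells (13.9 to 42.0) and *Itga8* and *Itgb1* in 12.8% of peritubular myoid-like cells (10.0 to 16.0). These shares depend on depth: as read, without thinning, *Itga6* and *Itgb1* met in 88.4% of Sertoli-like cells.

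**Figure D5:**
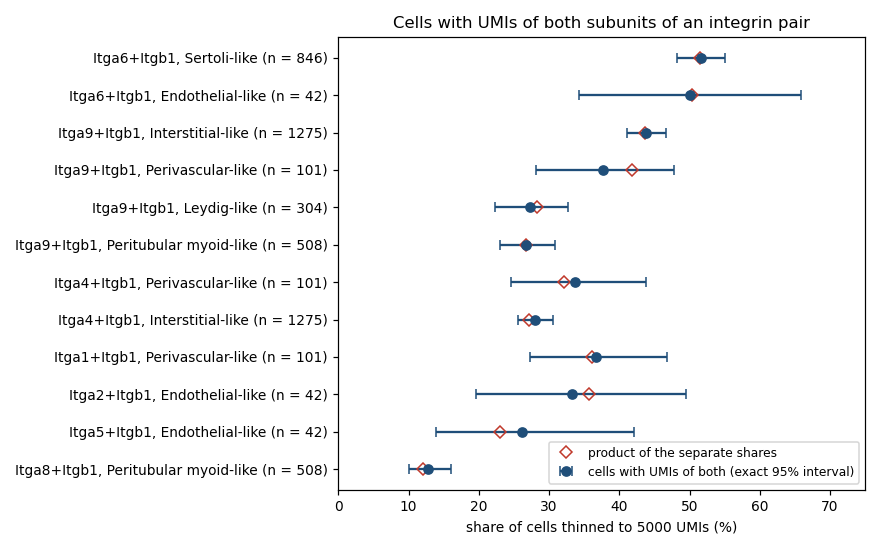
Share of cells, thinned to 5000 UMIs, with UMIs of both subunits of an integrin pair (filled points, exact 95% intervals) beside the product of the shares of the separate subunits (open diamonds). The highest shares are *Itga6* with *Itgb1* in Sertoli-like cells at 51.7% and in endothelial-like cells at 50%, and each diamond lies within the interval of its point.

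For the trimers, 3 chains had to meet. *Lama4*, *Lamb1* and *Lamc1* met in 19.1% of the 42 endothelial-like cells (8.60 to 34.1; product 16.1%), where the scarcest chain was *Lamb1* at 137 CPM, and in 5.94% of perivascular-like cells (2.21 to 12.5). *Lama2*, *Lamb1* and *Lamc1* met in 3.14% of interstitial-like cells (2.25 to 4.25), where *Lamc1* at 44.4 CPM was the scarcest. *Lama5*, *Lamb1* and *Lamc1* met in 4.03% of coelomic epithelium-like cells (1.49 to 8.56). In Sertoli-like cells no combination exceeded 0.591% of cells at this depth.

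Set side by side by the leading integrin α subunit and the leading laminin α chain, the classes differed. This lists the leading genes and does not join a receptor to its ligand, as α9β1 is not among the laminin receptors named above. Sertoli-like cells had *Itga6* with *Lama1*, closely followed by *Lama4*, and endothelial-like cells *Itga6* with *Lama4*. *Itga9* stood with *Lama2* in interstitial-like, with *Lama1* in Leydig-like, with *Lama4* in peritubular myoid-like and with *Lama5* in coelomic epithelium-like cells, where *Itgav* and *Itga3* were close behind it. The lead was narrow in Leydig-like cells (*Lama1* 41.2%, *Lama4* 37.1% of α chains) and in peritubular myoid-like cells (*Lama4* 38.1%, *Lama1* 36.0%). In Leydig-like cluster 8 *Lama4* stood above *Lama1*, at 41.7 against 35.0 CPM, and in cluster 6 below it, at 24.8 against 41.6. Perivascular-like cells had *Itga1* with *Lama4*, although the 50 of them that joined another class at resolution 0.4 held little *Itga1*. Peritubular myoid-like cells held *Lama1* at 20.2 CPM and *Lama4* at 21.4, with *Itga6* at 3.097 and *Itga3* at 5.75. They are named after cells that share the cord basement membrane with Sertoli cells, but their place was not read.

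The partners of laminin in the basement membrane differed by gene in where they were highest. Of 18 listed genes (type IV collagens, nidogens, perlecan, agrin and others), 16 reached 10 CPM. In endothelial-like cells 9 were higher (7.69% of genes) and 6 lower (16.2%), and in perivascular-like cells 8 were higher (3.31%) and 3 lower (7.65%). Interstitial-like cells had 6 higher (4.54%) and 3 lower (8.38%), coelomic epithelium-like cells 3 higher (3.78%) and 3 lower (7.1%), and peritubular myoid-like cells 2 higher (3.03%) and 3 lower (8.03%). Sertoli-like cells had 2 higher (8.73%) and 11 lower (10.8%). The median log2 difference of the 16 was 1.46 in endothelial-like cells, beside -0.22 over all genes, and -1.38 in Sertoli-like cells, beside -0.07. *Col4a1*, the main type IV collagen chain, stood at 1774 CPM in perivascular-like, 1442 in endothelial-like and 1097 in interstitial-like cells, against 120 in Sertoli-like and 135 in peritubular myoid-like cells. *Col18a1*, the source of endostatin, was at 531 CPM in Sertoli-like and 662 in endothelial-like cells. *Col4a4* at 64.7 CPM and *Frem1* at 115 were highest in peritubular myoid-like cells, and *Fras1* at 188 and *Frem2* at 69.9 in coelomic epithelium-like cells. *Fras1*, *Frem1* and *Frem2* encode matrix proteins that hold epithelia to the mesenchyme below.

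Of 9 other laminin receptors and integrin partners, 4 were higher in Sertoli-like cells (8.73% of genes) and 2 lower, *Sdc1* and *Cd47* (10.8%), with a median log2 difference of 0.22, beside -0.07 over all genes. *Dag1*, dystroglycan, stood at 246 CPM there, *Bcam*, a laminin α5 receptor, at 70.5, *Sdc4*, syndecan 4, at 319, and *Cd151*, a tetraspanin that binds laminin-binding integrins, at 163 CPM. *Bcam* stood above its Sertoli-like level in coelomic epithelium-like cells, at 87.1 CPM, where it was also called higher, and in rete testis-like cells, at 324 CPM. *Cd151* was also at 166 CPM in endothelial-like, 79.9 in Leydig-like, 21.8 in interstitial-like and 12.2 in immune-like cells. Germ-like cells held *Sdc4* at 573 and *Cd9* at 119 CPM.

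Of 20 measured genes for other integrin ligands, 19 reached 10 CPM. Peritubular myoid-like cells had 8 higher (3.03% of genes) and 2 lower (8.03%), interstitial-like cells 6 higher (4.54%) and 4 lower (8.38%), and Sertoli-like cells 2 higher (8.73%) and 11 lower (10.8%). The median log2 differences were 0.70, -0.11 and -1.18, beside -0.10, -0.08 and -0.07 over all genes. *Spp1*, osteopontin, a ligand of α4, α9 and αv integrins, stood at 351 CPM in Sertoli-like and 360 in immune-like cells and at 4.72 in interstitial-like cells. *Vcam1*, a ligand of α4 and α9, was at 21.3 CPM in interstitial-like cells, and *Fn1*, fibronectin, at 404 in the unnamed cluster of 82 cells, 301 in coelomic epithelium-like and 3.39 in Sertoli-like cells. *Cdh1*, E-cadherin, the ligand of αEβ7, was higher in germ-like cells alone, at 25.3 CPM.

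Of 22 adaptors and kinases that couple integrins to actin, 20 reached 10 CPM. In Sertoli-like cells *Ptk2b*, *Zyx* and *Bcar1* were higher (3; 8.73% of genes) and 2 were lower (10.8%), with a median log2 difference of 0.06, beside -0.07 over all genes. *Ptk2b*, a kinase related to focal adhesion kinase, stood at 114 CPM, against 36.5 in immune-like cells, the next named class. *Fermt3*, the kindlin of blood cells, was at 221 CPM in immune-like and 53.5 in erythroid-like cells, and *Fermt2*, the kindlin of other cells, was highest in perivascular-like cells at 334 CPM.

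The 11 genes below 10 CPM in each class of at least 30 cells included *Itga7*, *Itga10*, *Itga11*, *Itgad*, *Itgae*, *Itgax*, *Itgb2l*, *Itgb4*, *Itgb6* and *Lamb3*. *Itgb4*, whose product joins α6 in hemidesmosomes, had 44 UMIs in 44 cells and reached 2.79 CPM at most. *Lamb3*, a β chain of epithelial laminins, had 5 UMIs, of which 0 lay in Sertoli-like cells, where *Lama3* was highest. *Itga11*, a collagen receptor subunit of fibroblasts, had 225 UMIs spread over 212 cells, and *Itgb2l* had none among 54483539 UMIs, which allows up to 3.

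Some low genes had counts in places of their own. *Itgad* had 20 UMIs in 20 cells, all Sertoli-like, none of which held a UMI of *Itgb2*, its partner. *Itgam* had UMIs in 19 Leydig-like cells, all 19 with *Cyp17a1*, a marker of this class. None held a UMI of *Itgb2*, *Ptprc* or *Tyrobp*, genes of leukocytes. However, *Ptprc* and *Tyrobp* had no UMI in any Leydig-like cell, and *Itgb2* had only 44 in all kept cells, most of them immune-like. These absences, and that of *Itgb2* beside *Itgad*, could hardly have come out otherwise. The source of these UMIs was not tested. In the 13 immune-like cells with *Itgam*, 11 held *Itgb2*, and all 13 held *Ptprc* and *Tyrobp*. *Itgam* overlaps *Gm49368* on the same strand, and *Itgad* overlaps *Cox6a2* on the other strand, at 1.39 CPM in Sertoli-like cells. Reads from exons that genes share on 1 strand cannot be told apart here.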

How the data were processed

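RNA of single cells from 1 control library of mouse testes (10x Genomics Chromium, 3′ chemistry) was analysed. The deposited matrix holds raw UMI counts, not normalized. The authors ran Cell Ranger against mm10 with YFP added. The submitters' processing notes list Cell Ranger 3.0.2 and 3.1.0. The matrix held 5421 barcodes and 72595083 UMIs.

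Barcodes with under 200 genes (372), 204 doublets (scored by artificial neighbours, 4.04%) and 1029 outliers beyond 3 median absolute deviations were removed. Clustering used Seurat 5.3.0 and sctransform 0.4.2 (R 4.3.3; 3000 variable genes, 30 components, resolution 0.8), after the study's methods, with the members left out. Intervals (95%, exact: Poisson for levels, Clopper-Pearson for shares, conditional for ratios) came from scipy 1.17.1. A name needed 3 markers in 25% of cells and a mean log2 ratio of 1. It was withheld where another list had more markers among the leading genes of the cluster. It was also withheld where a shallow cluster had no marker of its own among them. Genes at or above 20 CPM in a class of 30 cells were described. The members, lists and markers were chosen with earlier results of these data known. The calls and thinning were tested on simulated data. Positions are GENCODE M21 on GRCm38 and promoters RefSeq on GRCm38.p6. Other filters, resolutions, folds and depths were tried. The mutant library was not used here, and 1 member is not reported here by name.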

Additional observations from a re-analysis of the deposited data

Results flagged for a closer look

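Some barcodes left out of the comparisons held a few UMIs of the members, whose source was not tested. In the 372 barcodes with fewer than 200 genes, 1409901 UMIs in all, *Itgb1* had 8 UMIs and *Itga6* had 4. Both are above 3 counts, which a count of 0 allows. These are 5.67 and 2.84 CPM, against 53.7 CPM or more of *Itgb1* in the 11 named classes.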

How the results depend on the processing

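No paired analysis was possible because there was 1 library and no test. The named classes had 29 calls higher and 69 lower over all members. A 1.5-fold rule gave 49 higher, with 6 in Sertoli-like cells in place of 2. A 4-fold rule gave 15 higher and 24 lower, with 1 in Sertoli-like, 3 in interstitial-like and 4 in endothelial-like cells and 7 lower in germ-like cells. The share of all genes was not counted for these totals or for the other folds. Over the alternatives, 186 of the remaining counts per class stayed within 1.5 times and 50 moved. Of these, 13 moved with the 4-fold rule, 7 with the 1.5-fold rule, 7 with 1 CPM added and 4 with 10 CPM added. Thinned to 3000 UMIs, *Itga6* with *Itgb1* in Sertoli-like cells fell to 27.8%, *Itga9* with *Itgb1* and *Itga4* with *Itgb1* in interstitial-like cells to 25.5% and 15.9%, *Itga1* with *Itgb1* in perivascular-like cells to 24.8% and the *Lama4* trimer in endothelial-like cells to 2.38%. Not thinned, the same shares were 88.4%, 71.1%, 50.6%, 50% and 69.1%, and *Itga2* and *Itga6* with *Itgb1* met in 71.4% and 90.5% of endothelial-like cells. *Itga1* with *Itgb1* in perivascular-like cells moved with the class: 26.9% with a limit of 5 deviations, 62.5% without the outlier filter, 63.4% with the doublet rate doubled, 66.7% and 23.8% at resolutions 0.4 and 1.2, and 66.04% with the members kept in the clustering. *Itga4* with *Itgb1* in interstitial-like cells was 30.6%, 32.6% and 31.5% with 5 deviations, no outlier filter and the members kept. *Itga9* with *Itgb1* was 40.7% with the doublet rate doubled, and *Itga6* with *Itgb1* in endothelial-like cells 68.9% with no doublets removed. Of 24 member levels, 18 stayed within 1.5 times in every alternative. Each is the level of a gene in its highest named class of at least 30 cells. A reversed direction could hardly have shown in these levels, and the direction of the lower calls was not followed. Immune-like cells were not named without the outlier filter, and erythroid-like cells were under 30 with the doublet rate doubled, so these gave no values. Leaving out the barcode rich in *Itga2b*, an alternative chosen after seeing the data, moved none of these counts. With 42, 37, 35 and 17 cells, the endothelial-like, immune-like, erythroid-like and rete testis-like values are the least precise, and shares of cells with UMIs depend on depth.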
